A study of Mus musculus with 17 samples.

Results

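The genes described here are 9 that copy DNA or supply its building blocks: Mcm2, Mcm3, Mcm4, Mcm5, Mcm6 and Mcm7, the subunits of the replicative helicase, Mcm10, which helps to start it, and Rrm1 and Rrm2, the subunits of ribonucleotide reductase. They were found as all probe sets of the mouse array whose only gene symbol in the platform annotation is one of these names. This gave 28 of 45037 probe sets that are no controls, from 2 for Mcm2 and Mcm4 to 5 for Mcm3. Of the 28, 27 passed a filter on dim probe sets. Each gene was represented by the brightest of those left, and all 9 were among the 14245 genes tested.

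The helicase subunits form a ring that is loaded onto DNA at replication origins before S phase and, joined by Cdc45 and the GINS complex, unwinds the double strand when S phase begins. Ribonucleotide reductase turns ribonucleotides into deoxyribonucleotides, with Rrm1 as the large catalytic and Rrm2 as the small radical-bearing subunit, and Rrm2 protein is made and destroyed with the cell cycle. In bone marrow these genes are known as marks of dividing cells, chiefly erythroid, granulocytic and lymphoid precursors. Many of them are textbook targets of the E2F transcription factors, which act at the passage from G1 to S phase.

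Total RNA of sorted mouse marrow cells was measured on 17 arrays in 5 groups and 2 batches. Piga makes the first intermediate of the glycosylphosphatidylinositol (GPI) anchor, and cells that lose it lack GPI-anchored surface proteins. Batch 1 held the GPI-negative and the GPI-positive fraction of marrow from Pig-a knock-out mice (3 arrays each). Batch 2 held 3 groups. Knock-out graft cells (4 arrays) were GPI-negative cells from C57BL/6 mice transplanted with Pig-a knock-out marrow. Wild-type graft cells (3 arrays) were GPI-positive cells from C57BL/6 mice given wild-type marrow. Wild-type cells (4 arrays) were GPI-positive cells from C57BL/6 mice that the labels give as wild type, with no transplant named. All fractions were sorted with fluorescent antibodies to the GPI-anchored antigens CD24, CD48 and Gr-1. The knock-out graft had been kept with 10 nM aerolysin, a toxin that lyses cells bearing GPI anchors, for 30 minutes, and its recipients had received 9 Gy of irradiation. The labels give aerolysin and irradiation for that group alone, so between the graft groups GPI status, graft genotype and treatment cannot be told apart. The sort for GPI-positive cells does not separate a wild-type graft from cells of the host. No age of the mice is stated in the sources used here, nor the agent that deletes Pig-a or the cells in which it acts. Arrays are labelled as biological replicates, but no animal is named, and the p-values therefore cover only array-to-array spread, which may be technical in part.

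Before the levels, the promoters of the members show a feature that the choice of genes did not use. RefSeq promoter windows (assembly GRCm38.p6, 250 bases before to 50 bases after the start) were at hand for 8 of the 9 genes, with 2 windows for Mcm7. Mcm4 had no entry. They were searched on both strands for the E2F letters TTTCCCGC, TTTCGCGC, TTTGCCGC and TTTGGCGC and for CCAAT, the core of the NF-Y site. The E2F spellings may overlap one another. E2F letters were present in 4 of 9 windows, those of Mcm3, Mcm5, Mcm6 and 1 of the 2 of Mcm7, a share of 44.4% against 2.26% of all 32851 windows. CCAAT was present in 9 of 9, against 37.4% of all windows. The upstream stretches of Mcm5 and Mcm6, in which E2F letters on both strands overlap in a single 12-base stretch, with a separate match further on in Mcm6, and of Rrm2, which holds CCAAT alone, are shown 5′ to 3′ on the strand of the gene, with both motifs in capitals. Short windows show both matches to the E2F letters in Mcm3 and in Mcm7, 1 window for each match, again in capitals.
Mcm5, chr8:75109259-75109508, plus strand: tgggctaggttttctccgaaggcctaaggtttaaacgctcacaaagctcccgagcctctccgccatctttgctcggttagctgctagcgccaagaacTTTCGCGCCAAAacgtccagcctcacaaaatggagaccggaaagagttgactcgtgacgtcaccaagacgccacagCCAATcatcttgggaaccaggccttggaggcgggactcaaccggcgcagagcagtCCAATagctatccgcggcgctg
Mcm6, chr1:128359706-128359955, minus strand: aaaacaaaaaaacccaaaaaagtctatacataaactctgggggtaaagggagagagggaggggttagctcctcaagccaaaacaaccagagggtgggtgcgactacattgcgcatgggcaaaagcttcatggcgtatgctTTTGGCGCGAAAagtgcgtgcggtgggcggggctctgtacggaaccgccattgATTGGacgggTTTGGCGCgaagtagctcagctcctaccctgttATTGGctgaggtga
Rrm2, chr12:24708004-24708253, plus strand: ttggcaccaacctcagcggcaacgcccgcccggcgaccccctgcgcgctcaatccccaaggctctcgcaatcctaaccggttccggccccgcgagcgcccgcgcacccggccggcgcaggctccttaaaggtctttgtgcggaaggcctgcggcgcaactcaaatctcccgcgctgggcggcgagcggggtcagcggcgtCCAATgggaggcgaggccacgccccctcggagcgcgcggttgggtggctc
Mcm3, chr1:20820275-20820304, minus strand: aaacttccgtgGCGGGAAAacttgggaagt
Mcm3, chr1:20820263-20820292, minus strand: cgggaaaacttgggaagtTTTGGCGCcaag
Mcm7, chr5:138172030-138172059, minus strand: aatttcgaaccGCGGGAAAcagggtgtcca
Mcm7, chr5:138171849-138171878, minus strand: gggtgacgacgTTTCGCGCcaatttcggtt
A match is a run of letters in a window and not a site shown to be bound, and no letters in a window say nothing about the factor.

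Levels are given on a log2 scale made from the deposited log10-like values, with every array brought to the same median. The 2 batches had been normalized separately, so levels are compared within a batch only. A difference of 1 is a 2-fold change if the deposited scale is a true log10, which the added hybridisation controls bear out in part: their values rose by 0.868 to 1.21 per 10-fold of concentration over the 17 arrays. That slope was lower in knock-out GPI-negative cells (0.868 to 0.976) than in knock-out GPI-positive cells (1.06 to 1.08), and lay between 1.1 and 1.21 in batch 2. The mean level of these controls was 8.32 to 8.93 in knock-out GPI-negative against 6.43 to 6.91 in knock-out GPI-positive cells, with no overlap, and 6.16 to 7.3 in batch 2. The part of this gap in the knock-out results was not tested. Piga itself was at 1.65 to 1.92 in knock-out GPI-negative and 3.54 to 4.11 in GPI-positive cells, and at 0.28 to 0.92 in knock-out graft cells against 4.02 to 4.3 in the other 2 groups of its batch. The 3 knock-out GPI-positive arrays lay close together, with a median SD over the 9 genes of 0.023 against 0.171 to 0.222 in the other groups.

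Between the graft groups, all 9 genes were lower in GPI-negative cells with knock-out grafts than in GPI-positive cells with wild-type grafts, and 7 of 9 passed limma's test (adjusted p under 0.05 over all genes). Over all genes tested 3.45% were called lower in this comparison. The median difference of the 9 genes was -0.62 on the log2 scale, against -0.01 over all genes. The reductase genes and Mcm7 had the largest differences. On the brightest probe set the arrays of the groups overlapped in none of the 9 genes. This held in this direction for 7.52% of all genes. In bulk RNA, fewer dividing cells and less RNA per cell cannot be told apart.

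**Figure D1:**
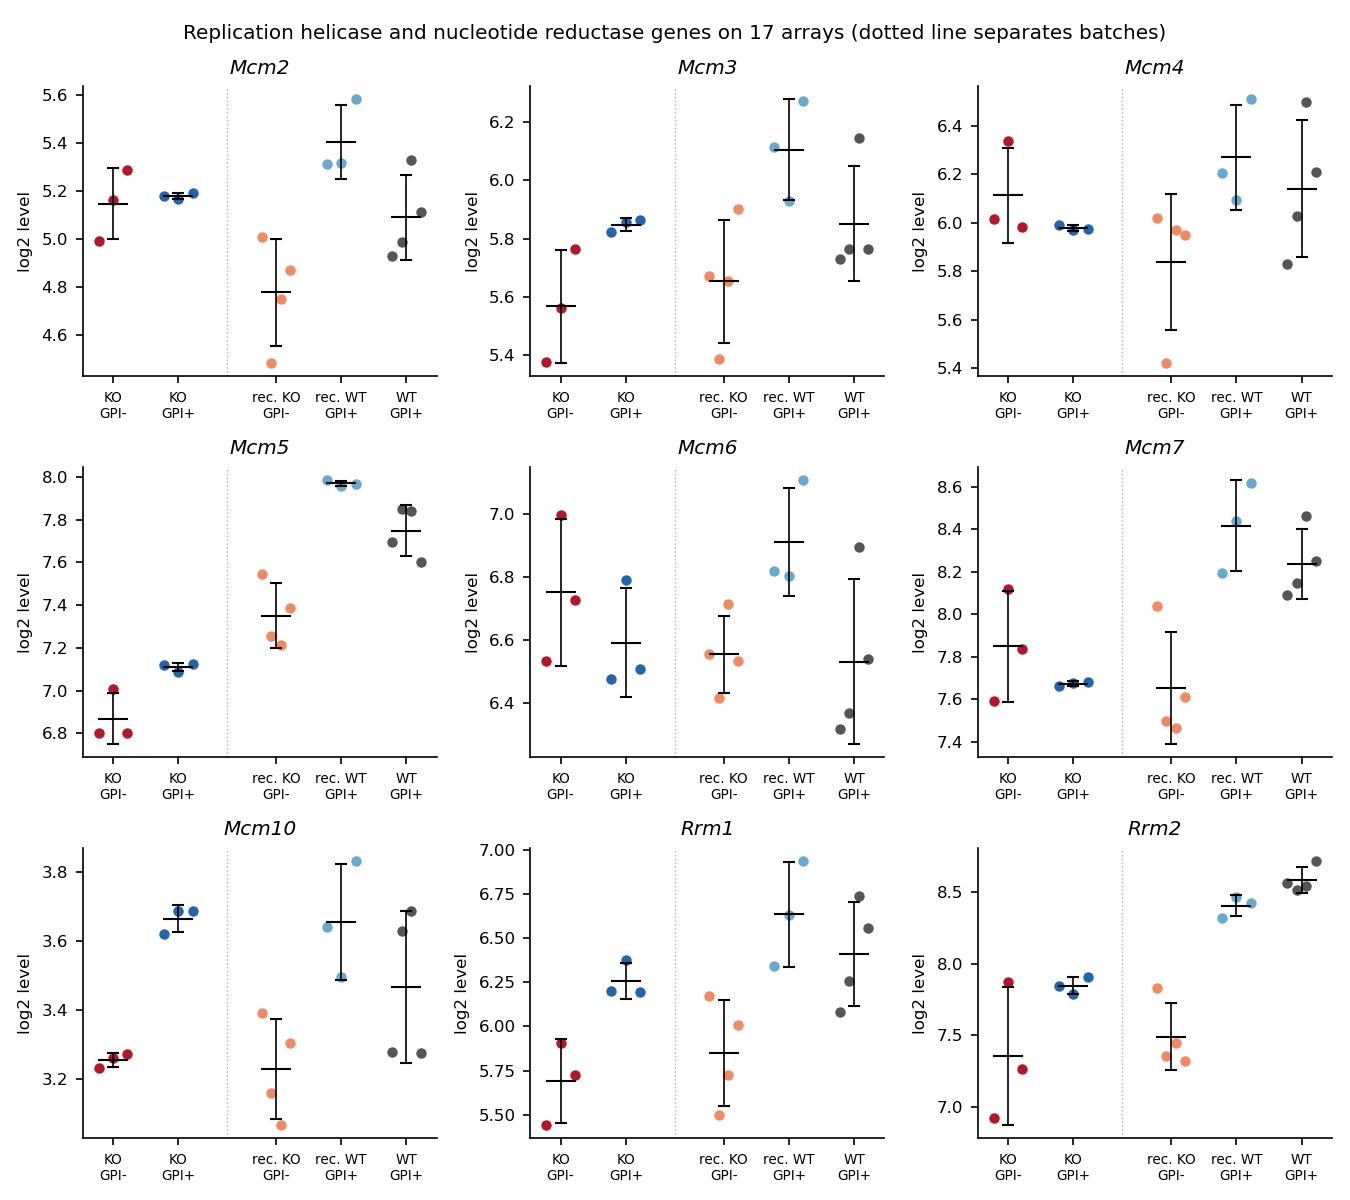
Log2 level of each gene (vertical axes, each with its own range) on the 17 arrays, by group (KO, knock-out; rec., recipients of knock-out or wild-type marrow; WT, wild type). Points are arrays, and bars give the mean and SD. For Rrm2 all 4 knock-out graft arrays lie between 7.32 and 7.83, under the 8.32 to 8.71 of the other groups of batch 2.

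Rrm2, the small reductase subunit, was at 7.83, 7.35, 7.45 and 7.32 in knock-out graft cells and at 8.32, 8.46 and 8.42 in wild-type graft cells. The highest array of the former thus lay under the lowest of the latter, and the difference was -0.91 ± 0.16 (SE, 4 and 3 arrays; 1.88-fold, limma adjusted p = 0.000778). Rrm1, the catalytic subunit, was at 6.17, 5.50, 5.72 and 6.01 against 6.34, 6.63 and 6.94. Its groups were closest at replicate 1 of each, and the difference was -0.79 ± 0.17 (1.72-fold, adjusted p = 0.00618). Without wild-type graft replicate 3, the highest array, Rrm1 no longer passed (-0.63, adjusted p = 0.0587).

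Among the helicase subunits Mcm7 stood furthest apart. It was at 8.04, 7.50, 7.47 and 7.61 in knock-out graft cells against 8.19, 8.44 and 8.62 in wild-type graft cells, lower by 0.76 ± 0.14 (1.7-fold, adjusted p = 0.00183). Mcm2, which carries a histone-binding tail, was at 5.01, 4.48, 4.75 and 4.87 against 5.31, 5.32 and 5.58 (-0.63 ± 0.13, adjusted p = 0.00285). Mcm5, which forms the gate of the ring with Mcm2, was at 7.55, 7.26, 7.21 and 7.39 against 7.98, 7.96 and 7.97 (-0.62 ± 0.10, adjusted p = 0.000392). The 3 wild-type graft arrays of Mcm5 spanned the narrowest range of any member in that group. Mcm2, Mcm5, Mcm7 and Rrm2 passed also with any 1 array left out.

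The other helicase genes were lower by less. Mcm3 ranged from 5.39 to 5.90 in knock-out graft cells and from 5.93 to 6.27 in wild-type graft cells (-0.45 ± 0.13, adjusted p = 0.0364). Mcm10, the initiation factor outside the ring, ranged from 3.07 to 3.39 against 3.49 to 3.83 (-0.43 ± 0.12, adjusted p = 0.0311). Both calls were close to the threshold. Mcm3 did not pass without knock-out graft replicate 2 or 3 (adjusted p = 0.13 and 0.0647) or wild-type graft replicate 1 or 3 (0.0859 and 0.183). For Mcm10 the same 4 arrays ended the call (adjusted p = 0.0832, 0.0916, 0.0687 and 0.174). With the probe sets of a gene averaged neither passed (Mcm3 adjusted p = 0.0731, Mcm10 0.0879), nor with batch 2 fitted alone (0.0571 and 0.0656). Mcm3 was lost also without the intensity trend (0.0579) and on its brightest probe set without an _x_at or _s_at suffix (-0.34, adjusted p = 0.228). Mcm4 (-0.43 ± 0.16, adjusted p = 0.109) and Mcm6 (-0.35 ± 0.14, adjusted p = 0.145), 2 subunits of the catalytic core with Mcm7, did not pass. Their 95% intervals of -0.76 to -0.11 and -0.64 to -0.06 exclude 0 before adjustment, and both passed with their probe sets averaged (Mcm4 -0.41, adjusted p = 0.025, Mcm6 -0.40, 0.0333). In all, 4 of the 9 genes passed in place of 7 without wild-type graft replicate 3.

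**Figure D2:**
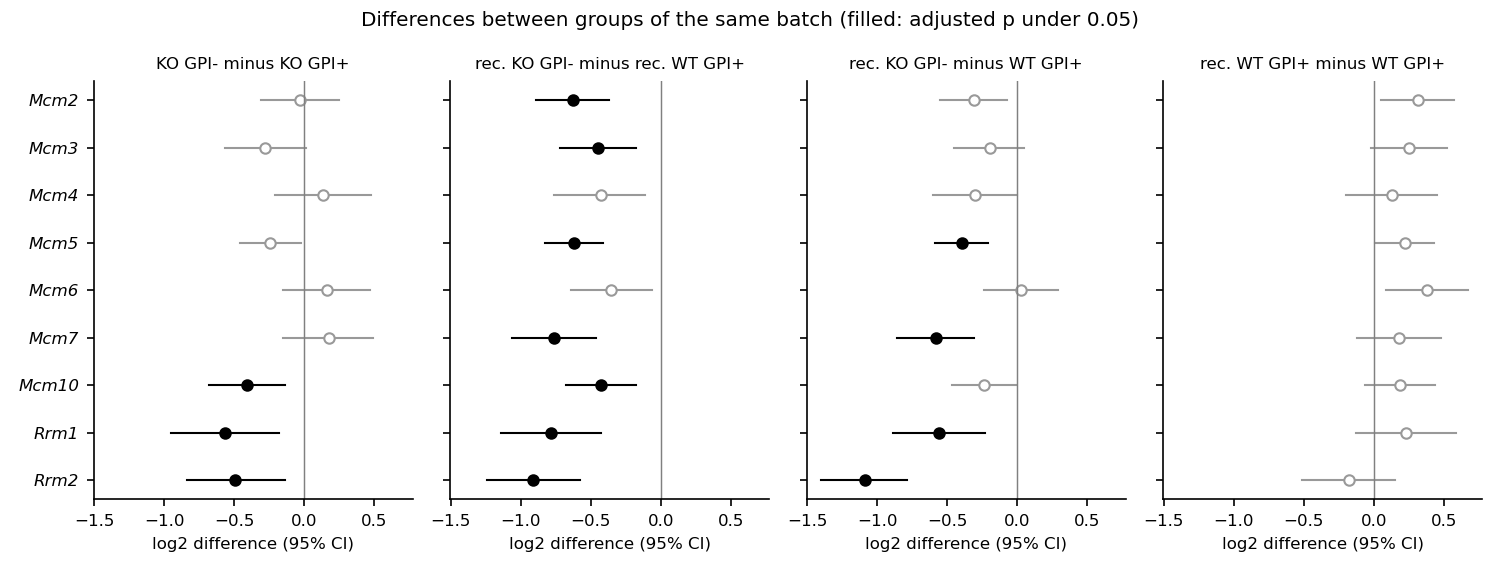
Log2 difference of each gene (points) with its 95% confidence interval (lines) in the 4 comparisons within a batch. Filled points passed limma's test at an adjusted p under 0.05: 3, 7, 4 and 0 of 9 genes from left to right.

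Set against wild-type cells, the same GPI-negative arrays were lower for 4 of 9 genes, Rrm2, Mcm7, Mcm5 and Rrm1. Over all genes 5.55% were called lower. The median of the 9 genes was -0.31, against 0.02 over all genes. This comparison shares the knock-out graft arrays with the one before it, so their calls are not independent. Rrm2 was at 8.56, 8.51, 8.54 and 8.71 in wild-type cells and had the largest difference of the members (-1.09 ± 0.15, 2.13-fold, adjusted p = 3.8e-05). Mcm7 was at 8.09, 8.15, 8.46 and 8.25 there, which left knock-out graft cells lower by 0.58 ± 0.13 (1.5-fold, adjusted p = 0.00538), and Mcm5 differed by -0.40 ± 0.09 (adjusted p = 0.00607). For these 3 genes the groups did not overlap on the brightest probe set, which held for 7.04% of all genes in this direction.

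Rrm1 differed by -0.56 ± 0.16 from wild type (adjusted p = 0.0238), with overlapping groups, since wild-type replicate 1 was at 6.08 and knock-out graft replicate 1 at 6.17. Its call was lost without knock-out graft replicate 2 or 3 (adjusted p = 0.0958 and 0.065) or wild-type replicate 3 or 4 (0.0974 and 0.076). The call of Mcm5 rests on a probe set with the suffix _x_at, a mark for probes that may also match other transcripts. On its brightest other probe set the difference was -0.15 (adjusted p = 0.532), and with its probe sets averaged -0.22 (0.128). Mcm2 (-0.31 ± 0.12, adjusted p = 0.0855), Mcm4 (-0.30 ± 0.15, 0.205), Mcm10 (-0.24 ± 0.11, 0.191) and Mcm3 (-0.20 ± 0.12, 0.344) did not pass, although Mcm2 did without knock-out graft replicate 1 (-0.39, adjusted p = 0.0351) and Mcm4 with its probe sets averaged (-0.43, 0.00785). Mcm6 was at 0.02 ± 0.13 with a 95% interval of -0.24 to 0.29.

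Wild-type graft cells and wild-type cells, both GPI-positive, did not differ for any member in limma's test (0 of 9 called, 3 at an unadjusted p under 0.05; 0.842% of all genes were called in either direction). Of the 9 differences 8 were above 0, although those of Mcm4 and Rrm1 turned when probe sets were averaged by gene, with a median of 0.22 against 0.02 over all genes. Mcm6 (0.38 ± 0.14, adjusted p = 0.211), Mcm2 (0.31 ± 0.13, 0.246) and Mcm5 (0.22 ± 0.10, 0.311) were the 3 with a low unadjusted p. Rrm2 was the exception in sign (-0.18 ± 0.16, limma adjusted p = 0.668). On its brightest probe set, with the suffix _x_at, its wild-type arrays, from 8.51 to 8.71, lay above the 8.32 to 8.46 of wild-type graft cells. The groups did not overlap in this direction for 5.86% of all genes. On the other Rrm2 probe sets the groups overlapped (-0.15 and -0.035). Those of Mcm5 did not overlap in the other direction on its brightest probe set, which held for 8.04%. In batch 2 the order of group means was thus wild-type graft cells, wild type, knock-out graft cells for 7 of the genes. For Rrm2 wild type stood first, and for Mcm6 wild type stood last, just under knock-out graft cells. No member passed between wild-type graft and wild-type cells.

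In knock-out marrow itself, 3 of 9 genes fell in GPI-negative against GPI-positive cells: Rrm1, Rrm2 and Mcm10. Over all genes 14.8% were called lower there. The median of the 9 genes was -0.24, against -0.01 over all genes. No subunit of the helicase ring passed, and Mcm4, Mcm6 and Mcm7 had differences above 0. The comparison rests on closely spaced GPI-positive arrays. With these averaged into 1 sample, which is then assumed to vary like the other groups, no member passed in limma (0 of 9, and 0 at an unadjusted p under 0.05).

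Rrm1 was at 5.44, 5.91 and 5.72 in knock-out GPI-negative cells and at 6.20, 6.37 and 6.19 in GPI-positive cells (-0.57 ± 0.18, 3 arrays each, 1.48-fold, limma adjusted p = 0.0243). Rrm2 was at 6.93, 7.87 and 7.27 against 7.85, 7.79 and 7.91 (-0.49 ± 0.17, adjusted p = 0.032). GPI-negative replicate 2 of Rrm2 lay among the GPI-positive arrays, while replicates 1 and 3 lay under all of them. Mcm10 was at 3.23, 3.26 and 3.27 against 3.62, 3.69 and 3.69 (-0.41 ± 0.13, adjusted p = 0.019), with no overlap and little spread. On the brightest probe set the groups did not overlap in this direction for 4 of the 9 genes, Mcm3, Mcm5, Mcm10 and Rrm1, against 21.2% of all genes.

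Each of these calls was lost when single arrays were left out. Mcm10 did not pass without GPI-positive replicate 2 or 3 (adjusted p = 0.0587 each). Rrm1 did not without GPI-negative replicate 1 (0.113) or GPI-positive replicate 2 (0.0902). Rrm2 did not without GPI-negative replicate 1 (0.217) or 3 (0.0925) or any of the 3 GPI-positive arrays (0.0587 to 0.0947). Rrm2 was lost also with batch 1 fitted alone (adjusted p = 0.103) and on its brightest probe set without an _x_at or _s_at suffix (-0.42, 0.0863). With its probe sets averaged Mcm10 was at -0.21 (adjusted p = 0.124). The number of members called was 0 without GPI-positive replicate 2 (3 at an unadjusted p under 0.05), 1 without GPI-negative replicate 1 or GPI-positive replicate 3, and 4 without GPI-negative replicate 2, where Mcm5 joined (-0.31, adjusted p = 0.0462).

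For the ring subunits the knock-out comparison gave Mcm3 -0.28 ± 0.14 (adjusted p = 0.142), Mcm5 -0.24 ± 0.11 (0.0951) and Mcm2 -0.03 ± 0.13 (0.889). Mcm4 was at 0.14 ± 0.17 (0.598), Mcm6 at 0.16 ± 0.15 (0.468) and Mcm7 at 0.175 ± 0.154 (0.439). Mcm7 was at 7.59, 8.12 and 7.84 in GPI-negative cells around GPI-positive arrays of 7.66, 7.68 and 7.68. Its sign depends on the probe set, since the brightest one without an _x_at or _s_at suffix gave -0.15 (adjusted p = 0.585), and Mcm3 turned from below to above 0 in the same way (0.03, adjusted p = 0.926). The 95% intervals reach from -0.31 to 0.25 for Mcm2 and from -0.15 to 0.49 for Mcm7.

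The difference between the knock-out comparison and the graft comparison, which share no array, was tested directly. It was above 0 for all 9 genes, although for Mcm10 the sign turned with quantile normalization over the 17 arrays together, and passed for 2 of 9, Mcm7 (0.94 ± 0.21, adjusted p = 0.00343) and Mcm2 (0.59 ± 0.18, adjusted p = 0.0262). Over all genes 9.04% were called in that direction. The median of the 9 genes was 0.42, against 0.02. Besides Mcm7 and Mcm2, 7 genes did not pass. The 95% intervals include 0 for Mcm10 (0.02 ± 0.18, -0.35 to 0.38), Mcm3 (0.17 ± 0.19, -0.23 to 0.57), Rrm1 (0.22 ± 0.25, -0.31 to 0.74) and Rrm2 (0.42 ± 0.23, -0.06 to 0.9). Those of Mcm4, Mcm5 and Mcm6 exclude 0 before adjustment. Batch and setting coincide here, so they cannot be told apart. With the knock-out GPI-positive arrays averaged neither gene passed (Mcm7 adjusted p = 0.0507, Mcm2 0.167; 2 of 9 at an unadjusted p under 0.05). On the probe set without such a suffix Mcm7 did not pass either (0.50, adjusted p = 0.157). Mcm2 was not called without knock-out GPI-negative replicate 3, any of the GPI-positive arrays, knock-out graft replicate 2 or wild-type graft replicate 3 (adjusted p from 0.0504 to 0.0784). Without knock-out GPI-negative replicate 1 the count was 4 of 9, and Mcm6 passed with its probe sets averaged (0.54, adjusted p = 0.0258).

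Between the graft groups the separate probe sets of a gene mostly moved alike, with 25 of the 27 kept ones below 0. In knock-out marrow those of Mcm2 (0.184 and -0.032), Mcm3 (-0.436 to 0.078), Mcm4 (0.135 and -0.062) and Mcm7 (-0.146 to 0.175) differed in sign. Fitted one by one among all 32426 kept probe sets, 14 of the 27 were lower between the graft groups and none higher (1.76% of all probe sets were called lower), with differences from -0.99 to 0.07. All 3 probe sets of Rrm2 passed (-0.99, -0.91 and -0.95), all 4 of Mcm7 (-0.76 to -0.60) and both bright ones of Rrm1 (-0.79 and -0.77). The groups overlapped on the Rrm2 probe set at -0.99 (knock-out graft up to 5.94, wild-type graft from 5.88). They overlapped also on the Rrm1 probe set at -0.77 (up to 5.54 and from 5.52) and on some dimmer ones of Mcm3 and Mcm10. Neither probe set of Mcm4 passed, nor the dimmer one of Mcm2 (limma adjusted p = 0.0654). The brightest ones of Mcm3 and Mcm10 did not pass in this fit (limma adjusted p = 0.0587 and 0.0536), although another of Mcm3 did (-0.62, 0.0432). For Mcm6 the dimmer of the kept probe sets passed (-0.45 ± 0.12, adjusted p = 0.0344) where the brightest did not. Against wild type 11 of the 27 were lower (3.97% of all probe sets), among them the dimmer probe sets of Mcm4 (-0.55 ± 0.13, adjusted p = 0.00678) and Mcm6 (-0.39 ± 0.11, 0.0333), whose brightest ones did not pass. There a second bright probe set of Rrm1 gave -1.01 ± 0.20 where the brightest gave -0.56.

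In the knock-out comparison 4 of the 27 probe sets were lower, against 13.4% of all. The number was thus close to the share over all probe sets. The 4 were 1 each of Mcm10 and Rrm1 and 2 of Rrm2. The largest was the Rrm2 probe set at 5.31, 6.64 and 5.74 against 6.76, 6.81 and 6.96 (-0.95 ± 0.30, adjusted p = 0.0227). Here too replicate 2 stood near the GPI-positive arrays and replicates 1 and 3 well under them. Between wild-type graft cells and wild type none of the 27 passed in limma in either direction (6 at an unadjusted p under 0.05). Of the 27, 8 were below 0, with a median of 0.1. Over all probe sets 0.318% were called lower, and over all genes 0.842% were called in either direction. Probe sets in the dim range, 1 each of Mcm3, Mcm5 and Rrm1 and 2 of Mcm10, did not pass in any of the 4 comparisons. The probe set that failed the filter belonged to Mcm6.

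**Figure D3:**
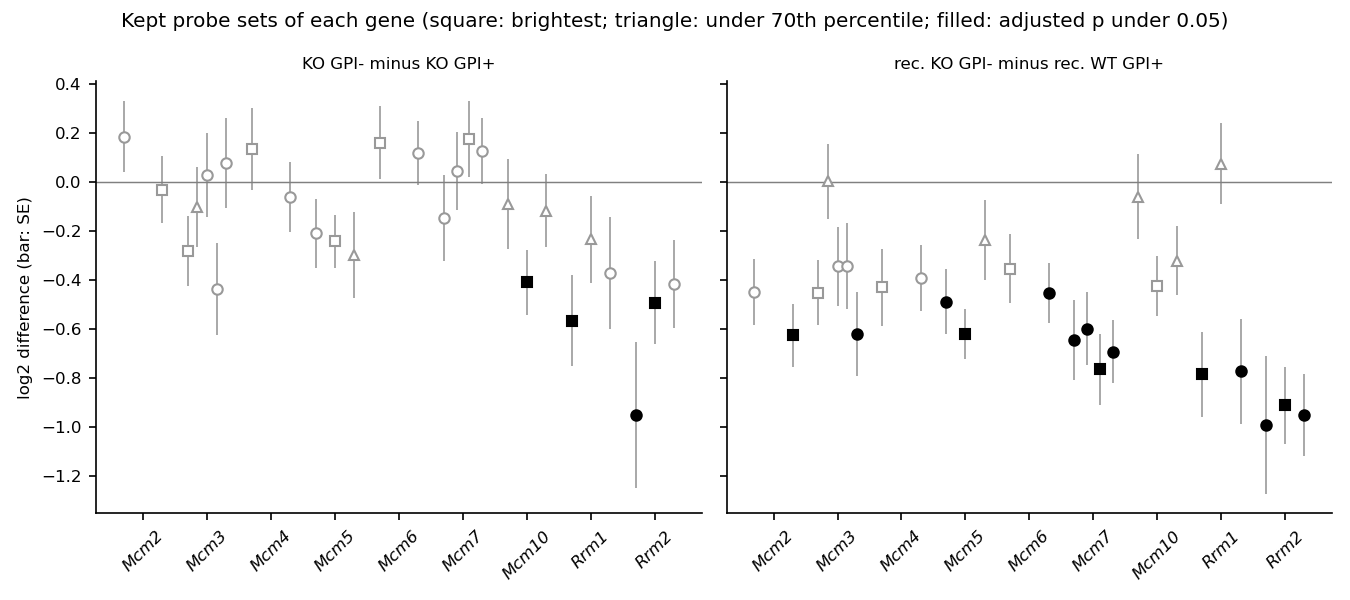
Log2 difference of the 27 kept probe sets by gene, with SE bars, in knock-out marrow (left) and between the graft groups (right). Squares are the brightest probe set of a gene, triangles those with a mean level under the 70th percentile of all probe sets, circles the others; filled symbols passed limma's test, 4 on the left and 14 on the right.

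Levels of the 9 genes often rose and fell on the same arrays, also within most groups. Such counts and correlations were not taken over all genes, so they are not shown to be particular to the 9. In knock-out GPI-negative cells 6 of 9 were highest on replicate 2 and 7 of 9 lowest on replicate 1. That replicate 2 also had the highest mean of the added controls (8.93) and the lowest slope (0.868) of its group, whose part was not tested. In knock-out GPI-positive cells replicates 1 to 3 held the highest value of 1, 3 and 5 genes and the lowest of 4, 4 and 1. In knock-out graft cells 7 of 9 were highest on replicate 1 and 5 of 9 lowest on replicate 2. Replicate 3 held the highest value of 7 of 9 genes in wild-type graft cells and of 7 of 9 in wild type. Their mean over the 9 genes was 5.88, 6.25 and 6.07 on the knock-out GPI-negative arrays and 6.21 to 6.27 on the GPI-positive ones, so that replicate 2 reached the GPI-positive level. It was 5.83 to 6.25 in knock-out graft cells, 6.55 to 6.81 in wild-type graft cells and 6.28 to 6.68 in wild type. As a description, the 36 pairs of members had a median Pearson correlation of 0.73 (0.2 to 0.88) over the 17 arrays after the mean of each batch was taken off, and 0.61 (0.06 to 0.89) after the mean of each group was taken off. The arrays share their normalization, which enters such values.

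Genes of other steps of replication were tested in lists named by role, 85 of 88 of them measured. Between the graft groups 40 of 85 fell and 2 rose (3.45% and 3.95% of all genes), with a median of -0.40 against -0.01 over all genes. Of 9 licensing genes, for the loading of the helicase and its control, 6 fell. Among them were Cdc6, the loader (-0.76 ± 0.18, limma adjusted p = 0.011), and Orc6, a subunit of the origin recognition complex (-0.70 ± 0.15, 0.0051). Of 17 genes of helicase activation and fork protection 8 fell, with Clspn, a mediator of the replication checkpoint, at -0.80 ± 0.14 and Ticrr, needed for Cdc45 loading, at -0.68 ± 0.15. Cdc45 itself was at -0.23 ± 0.11 (adjusted p = 0.24).

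Further along the fork, 5 of 12 polymerase and primase genes fell, with the primase subunits Prim2 and Prim1 at -0.51 ± 0.13 and -0.50 ± 0.13. Of 15 genes of the clamp, its loader and the lagging strand 10 fell. Rfc4, a clamp loader subunit, was at -0.88 ± 0.16 and Lig1, which seals Okazaki fragments, at -0.64 ± 0.13, and Pcna, the clamp, at -0.62 ± 0.16. Of 14 genes listed under nucleotide supply 4 fell and 1 rose. Dut, which removes dUTP, was at -0.77 ± 0.14 and Tk1, thymidine kinase, at -0.70 ± 0.17. The 1 that rose was Samhd1, which breaks deoxynucleotides down (0.46 ± 0.11, limma adjusted p = 0.015). Rrm2b, the reductase subunit that stands in outside S phase, was at -0.24 ± 0.13 (adjusted p = 0.33). Of 18 regulators of the G1 to S passage, activators and repressors alike, 7 fell and 1 rose. Ccna2 (cyclin A2) was at -0.73 ± 0.17 and E2f7 at -0.62 ± 0.14. The 1 that rose was Rbl2 (0.38 ± 0.10), called higher also against wild type (0.34 ± 0.09) and in knock-out marrow (0.50 ± 0.11). Its relative Rb1 was called lower in all 3 comparisons (-0.54 ± 0.14, -0.61 ± 0.13 and -0.54 ± 0.15). The count of 42 called genes rested in part on single arrays: it was 17 without wild-type graft replicate 3, 27 without their replicate 2 and 26 without knock-out graft replicate 2.

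Against wild type 23 of the 85 genes fell and 2 rose (5.55% and 6.84% of all genes), with a median of -0.24. Ccna2 (-0.86 ± 0.16), Rfc4 (-0.76 ± 0.14), Cdc6 (-0.73 ± 0.17), Tk1 (-0.69 ± 0.16), Clspn (-0.68 ± 0.13), Pcna (-0.67 ± 0.15) and Prim1 (-0.64 ± 0.12) were the first of their lists, with Pcna after Rfc4. Orc1 (-0.62 ± 0.14), E2f2 (-0.62 ± 0.16), Dbf4 (-0.58 ± 0.10), which activates the Cdc7 kinase, and Tyms, thymidylate synthase (-0.44 ± 0.12), followed. Wild-type graft cells and wild type differed in 2 of the 85, where 0.842% of all genes were called in either direction. The 2 were Rfc1 (0.49 ± 0.10) and Shmt2 (0.67 ± 0.12), a mitochondrial enzyme of one-carbon metabolism. This count of 2 ranged from 0 to 3 with single arrays left out. It was 0 without wild-type graft replicate 1 and 3 without wild-type replicate 3. It was 1 without wild-type graft replicate 2 or 3 or without wild-type replicate 1, 2 or 4.

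In knock-out marrow 15 of the 85 genes fell and 5 rose, where 14.8% of all genes were called lower and 14.8% higher. The number that fell was thus close to the share over all genes, and the number that rose was under it. The median was -0.13, against -0.01 over all genes. Of the 15, 7 were among the 18 regulators of the G1 to S passage, whose median was -0.44. Cdc25a, a phosphatase that activates Cdk2, was at -0.86 ± 0.11 (adjusted p = 4.3e-06) and E2f8, a repressor of the E2F family, at -0.66 ± 0.14. Cdc45 (-0.51 ± 0.12) and Dbf4 (-0.48 ± 0.12) fell among the 17 activation genes, Dna2 (-0.63 ± 0.14) and Lig1 (-0.37 ± 0.14) among the lagging strand genes, Pola1 (-0.40 ± 0.15) among the polymerases and Tk1 (-0.58 ± 0.18) among the supply genes. Pold1, the catalytic subunit of polymerase delta (0.59 ± 0.13), Orc5 (0.41 ± 0.12) and Shmt1 (0.77 ± 0.23) rose. The 20 called genes became 13 without GPI-positive replicate 2 or 3, and with the GPI-positive arrays averaged the count was 1.

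The difference between those 2 comparisons was called for 14 of the 85 genes in the positive and 2 in the negative direction (9.04% and 9.96% of all genes). Pold1 (1.04 ± 0.18), Shmt1 (0.96 ± 0.31), Orc5 (0.86 ± 0.17), Dut (0.79 ± 0.21), Pole (0.76 ± 0.21), Rfc4 (0.76 ± 0.23), Chaf1b (0.70 ± 0.20), Topbp1 (0.60 ± 0.15), Cdt1 (0.55 ± 0.18) and Timeless (0.49 ± 0.17) were above 0. Cdc25a was below it (-0.46 ± 0.15). The count of 16 fell to 10 without knock-out GPI-positive replicate 1 or 3 or knock-out graft replicate 4, 9 without knock-out GPI-positive replicate 2 and 7 without wild-type graft replicate 3. It was 24 without knock-out graft replicate 1 and 2 with the knock-out GPI-positive arrays averaged.

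Genes of mitosis, which follows replication, were lower in GPI-negative cells too. Of 18 tested, 18 fell between the graft groups (median -0.79), 18 against wild type (median -0.76) and 13 in knock-out marrow (median -0.58). Over all genes 3.45%, 5.55% and 14.8% were called lower in these comparisons, with medians of -0.01, 0.02 and -0.01. Cenpf, a kinetochore protein, differed by -1.12 ± 0.16, -1.11 ± 0.15 and -0.80 ± 0.17. Cdk1, the mitotic kinase, was at -1.02 ± 0.16 between the graft groups, Birc5 (survivin) at -1.06 ± 0.15 against wild type and Ttk, a spindle checkpoint kinase, at -0.82 ± 0.16 in the knock-out. The mitosis mean was 4.56, 5.17 and 4.71 on the knock-out GPI-negative arrays against 5.35 to 5.37 on the GPI-positive ones. It followed the 9 genes in that replicate 2 was highest, but stayed under the GPI-positive arrays there. The difference between the lists was not tested. Mki67, a proliferation marker, was the 1 mitosis gene called between the knock-out and the graft comparison (0.60 ± 0.20, limma adjusted p = 0.043). Over all genes 9.04% were called in that direction, so 1 of 18 was not above that share. With the GPI-positive arrays averaged 6 of the 18 passed in the knock-out.

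**Figure D4:**
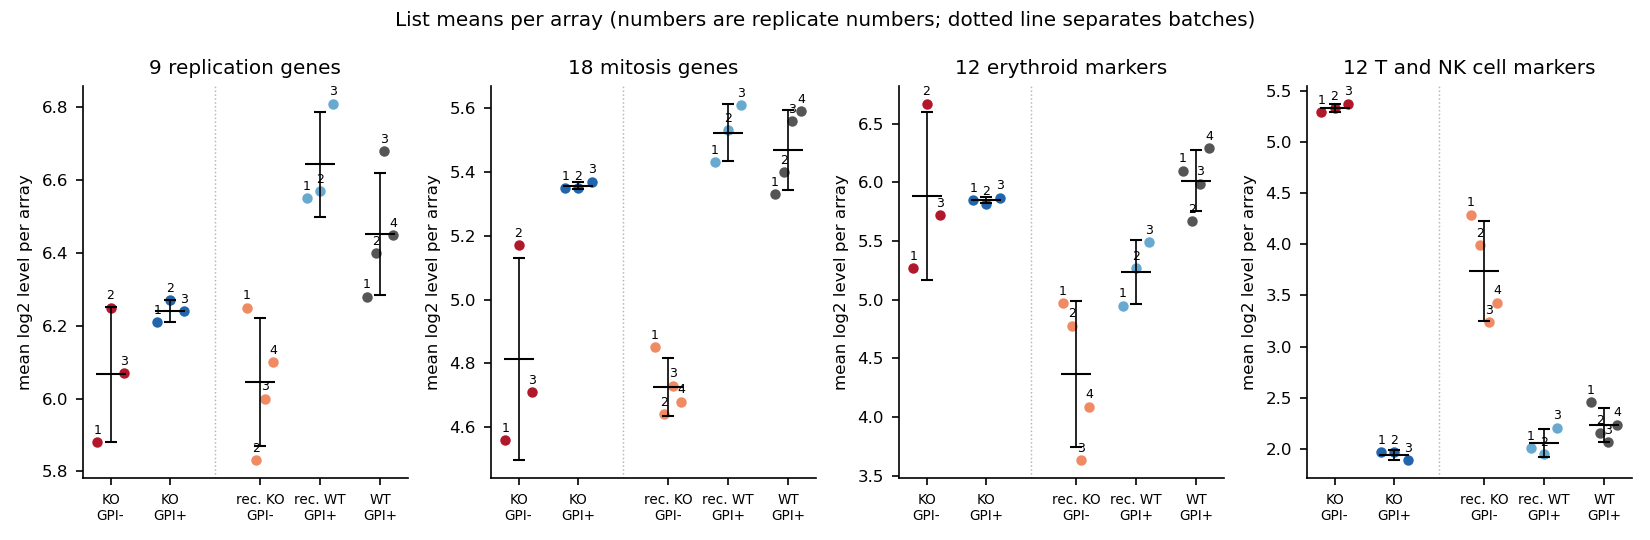
Mean log2 level per array (vertical axes) of the 9 genes, 18 mitosis genes, 12 erythroid markers and 12 T and NK cell markers, by group, with replicate numbers. Knock-out GPI-negative replicate 2 is highest of its group for the first 3 lists, at 6.25, 5.17 and 6.67, and the 4 knock-out graft arrays lie under the other groups of batch 2 in the mitosis panel, at 4.64 to 4.85.

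Markers of cell types in the marrow moved with the groups, and their part in the results on the 9 genes was not tested. Over all genes 14.8% were called lower and 14.8% higher in knock-out marrow. These shares were 3.45% and 3.95% between the graft groups, and 5.55% and 6.84% for knock-out graft cells against wild type. The mean of 12 erythroid markers, of a lineage that divides fast, was 5.27, 6.67 and 5.72 on the knock-out GPI-negative arrays, against 5.82 to 5.87 on the GPI-positive arrays, where 0 of 12 passed in limma (1 at an unadjusted p under 0.05). It was 3.63 to 4.97 in knock-out graft cells, 4.95 to 5.49 in wild-type graft cells and 5.67 to 6.29 in wild type, with 6 of 12 lower between the graft groups and 12 of 12 lower against wild type. Without wild-type graft replicate 3 the first of these counts was 3. In the knock-out comparison 2 of 12 were lower without GPI-negative replicate 2, with a median difference of -0.37 in place of 0.07. The mean of 10 neutrophil precursor markers was 7.76 to 7.85 and 9.09 to 9.12 in the knock-out fractions (9 lower), and 8.43 to 8.76, 9 to 9.19 and 8.57 to 9.02 in batch 2, in the same order of groups (6 lower between the graft groups, 2 against wild type).

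T and NK cell markers and plasmacytoid dendritic cell markers were higher in GPI-negative cells, and B lineage markers were so in knock-out marrow but not in batch 2. T and NK cell markers had means of 5.29 to 5.37 and 1.89 to 1.97 in the knock-out fractions (12 of 12 higher) and 3.24 to 4.29, 1.95 to 2.21 and 2.07 to 2.46 in batch 2 (11 of 12 higher in either comparison of knock-out graft cells). B lineage markers were at 5.29 to 5.56 and 4.55 to 4.61 in the knock-out fractions (7 of 10 higher, 4 with the GPI-positive arrays averaged). In batch 2 they were at 5.45 to 6.2, 5.86 to 6.35 and 6.02 to 6.43 (0 of 10 called by limma between the graft groups, 2 at an unadjusted p under 0.05, and 3 lower against wild type). Plasmacytoid dendritic cell markers were at 4.75 to 5.03 and 3.08 to 3.14 in the knock-out fractions (6 of 6 higher) and at 4.28 to 4.94, 3.3 to 3.5 and 3.71 to 3.95 in batch 2.

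Macrophage markers were lower, at 2.26 to 2.38 and 3.18 to 3.24 in the knock-out fractions (6 of 9 lower) and at 2.51 to 2.98, 3.16 to 3.36 and 3.45 to 3.68 in batch 2 (5 and 6 of 9 lower, 2 higher). Stem and progenitor markers were at 3.24 to 3.38 and 3.12 to 3.19 and at 2.89 to 3.33, 2.92 to 3.14 and 2.91 to 3.07. The group means of C1qa and C1qc in both GPI-negative groups, of Cd4 in the 3 GPI-positive groups, of Cd3e in knock-out GPI-positive cells, of Ncr1 in wild-type graft cells and of Mecom in all groups but knock-out GPI-negative cells lay under the level of the filter on dim probe sets. Every erythroid, neutrophil precursor and B lineage marker tested lay above it in all 5 groups. RNA measures moved too: the Gapdh 3′ minus 5′ signal was -0.29 to -0.04 in knock-out GPI-negative and -1.03 to -1 in GPI-positive cells, and -0.95 to -0.33, -0.88 to -0.49 and -0.96 to -0.84 in the groups of batch 2. Its part was not tested either.

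Outside the 9 genes, those whose batch-centred levels over the 17 arrays were most like the mean of the 9 included further replication genes. Rfc5, a clamp loader subunit, had a Pearson correlation of 0.974 (Spearman 0.941), Wdhd1, which ties polymerase alpha to the helicase, 0.965 (0.953) and Lig1 0.93 (0.929). Others of the first 10 were Suz12, a Polycomb subunit (0.958), Mms22l, which acts at stalled forks (0.937), Tlcd4 (0.935), Cbx5, heterochromatin protein 1 alpha (0.933), Ncapd2, a condensin subunit (0.933), Zwint, a kinetochore protein (0.932), and Tubb4b, a tubulin (0.928). These values are a description over arrays that share normalization and group structure.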

How the data were processed

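The authors' deposited table holds 1 value per probe set and array on a log10-like scale (0 to 3.857 in batch 1, 0 to 3.895 in batch 2). Sorted values were identical within a batch (largest difference 0), the mark of quantile normalization by batch. The submitters' processing notes name GCOS and give it no role; further steps are not stated in the sources used here. Values were divided by the log10 of 2 and arrays centred on a common median. After 64 controls were removed, 32426 probe sets lay at or above the 40th percentile of the array on 3 arrays or more. Of the 45037 non-control probe sets 34945 had 1 symbol, 932 several and 9160 none. The brightest stood for each of 14245 genes. The limma fit (version 3.58.1, R 4.3.3, intensity trend) used 5 group means and 17 arrays with 12 residual degrees of freedom, with Benjamini-Hochberg adjustment over all genes at 0.05. The number of arrays limits the precision. The steps were tested on simulated data. Alternatives covered normalization, filter, probe sets, variance prior, samples, replicate number and each array left out. The replicate numbers were not taken to pair the samples. The correlation of same-numbered deviations did not pass 0.1 for every pair in any comparison, but so few pairs cannot exclude a shared order. Between wild-type graft and wild-type cells 2 of 3 arrays matched best with their own number, and 0 did in the other comparisons. All 9 members were named by rule, with the 2 largest called genes of each wider list per comparison and the 10 genes most like the members. Pcna and Cdc45 between the graft groups, and Rrm2b, Samhd1, Rb1 and Rbl2, were added after their values were seen. Members and lists were chosen with earlier results of these data known.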

Additional observations from a re-analysis of the deposited data

Results flagged for a closer look

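In groups of 4 arrays, 1 array stood apart from the rest for 2 of 18 combinations of gene and group, by Dixon's criterion, which chance meets in about 1 group of 20. Mcm4 was at 5.42 on knock-out graft replicate 2, against 5.95 to 6.02 on the other arrays of the group. Mcm3 was at 6.15 on wild-type replicate 3, against 5.73 to 5.77 on the others. For 2 genes the knock-out comparison and the graft comparison differed by the test of the difference itself, Mcm2 by 0.594 and Mcm7 by 0.939 on the log2 scale (limma adjusted p = 0.0262 and 0.00343).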

How the results depend on the processing

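Counts give the members, the 85 wider replication genes and all genes called by limma. With single arrays left out, the knock-out comparison gave 0 to 4 members (3 with all arrays), 13 to 29 wider genes and 3297 to 3900 genes. The graft comparison gave 4 to 7 members, 17 to 43 wider genes and 680 to 1311 genes, and knock-out graft against wild-type cells 3 to 5, 20 to 29 and 1315 to 1728. Wild-type graft against wild-type cells gave 0 members (0 to 5 at an unadjusted p under 0.05), 0 to 3 wider genes and 21 to 89 genes, and the difference between the first 2 comparisons 1 to 4, 7 to 24 and 2095 to 3064. With the knock-out GPI-positive arrays averaged, the knock-out comparison gave 0 members (0 at an unadjusted p under 0.05), 1 wider gene and 1652 genes, and the difference 0 members (2 unadjusted), 2 wider genes and 978 genes. Between wild-type graft and wild-type cells the wider count was 0 (18 unadjusted) with the mean of probe sets, 1 without the intensity trend, 1 with the arrays of the batch alone and 1 with the replicate number as a block; all genes came to 59 without the trend and 45 with the block. With the block the difference gave 10 wider genes, Mcm10 was lost between the graft groups (adjusted p = 0.114) and Mcm6 gained in the difference (0.0315). On probe sets without an _x_at or _s_at suffix, an alternative chosen after seeing the data, the difference held 1 member. Signs turned for some values, not all of them near 0 in the fit used for the results above, and the cause was not tested. In the knock-out comparison these were Mcm2 (0.076 with the mean of probe sets; -0.102 to 0.047 with arrays left out), Mcm3 (0.028) and Mcm7 (-0.146), both on the suffix-free probe set. Mcm6 against wild type was -0.183 with the mean of probe sets and -0.047 to 0.145 with arrays left out. Between wild-type graft and wild-type cells Mcm4 was -0.016 and Rrm1 -0.044 with the mean of probe sets. In the fit used above, Rrm1 was at 0.227 there, and Mcm3 at -0.281 and Mcm7 at 0.175 in the knock-out comparison. In the difference Mcm10 was -0.004 when all arrays were quantile-normalized together, -0.004 with the block and -0.072 to 0.097 with arrays left out.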
